A study of Mus musculus with 8 samples.

Results

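A set of 10 genes of monocytes and infiltrating macrophages was followed in the liver of mice with an induced autoimmune hepatitis. They were taken by symbol from a deposited table of 13696 distinct genes, which held every one: Ly6c2, Ccr2, Chil3, Adgre1, Lyz2, Csf1r, Cx3cr1, Itgam, Cd68 and Fcgr1. Both groups carried loxP-flanked alleles of Bicd2 (Bicd2fl/fl), a gene for an adaptor of the dynein motor. The Alb-Cre group (4 libraries) also carried a Cre recombinase driven by the albumin promoter, which is active in hepatocytes and not in the blood-derived cells that the 10 genes mark, while the control group, called Alb-WT in the labels (4 libraries), is the floxed line named without Cre. Every mouse had been given S-100, a soluble liver extract, in complete Freund's adjuvant at 2.5 mg once a week for 3 weeks, and livers were collected 2 weeks after the last dose. The labels used here state neither age nor sex. No liver of an untreated mouse was analysed here, so the values compare genotypes within the disease model. The labels do not say that each library came from its own animal, and the p-values measure only the spread between these libraries, which may be technical.

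Monocytes leave the bone marrow through the chemokine receptor CCR2 and enter inflamed tissue, where they can mature into macrophages under signals through CSF1R. In mouse, classical monocytes carry the surface protein Ly6C, patrolling monocytes carry much CX3CR1, and ADGRE1 and CD68 appear on macrophages in general. The liver also holds its own resident macrophages, the Kupffer cells, which express Adgre1, Csf1r and Cd68 as well, and Lyz2, Itgam and Chil3 are also expressed by neutrophils. The 10 genes are therefore markers of myeloid cells in bulk tissue and do not isolate a single cell type. In bulk RNA, fewer cells of a type and less RNA per cell cannot be told apart.

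RNA was measured as FPKM, fragments scaled to gene length and library depth, and 32793770 to 39157210 fragments per library stood behind the values. Bicd2, the floxed gene, was 0.705, 0.568, 0.509 and 0.732 FPKM in Alb-Cre replicates 1 to 4 and 2.46, 3.02, 2.80 and 3.11 FPKM in Alb-WT (limma log2 fold change -1.24, SE 0.08, adjusted p = 7.25e-05). Alb-Cre replicate 4, low in Bicd2 like its group, differed from replicates 1 to 3 in many genes and is shown separately throughout. Its squared deviation from them over all genes was 357 to 385 times counting noise, more than the 190 to 208 times between replicates 1 to 3 and the Alb-WT libraries. Between replicate 4 and the Alb-WT libraries it was 203 to 216 times. Hepatocyte markers were high in every library, with a summed level over 8 genes of 46924 to 48734 FPKM in Alb-Cre replicates 1 to 3, 38292 FPKM in replicate 4 and 47353 to 47865 FPKM in Alb-WT.

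The promoters of the members are shown first, because PU.1, the ETS-family factor of the myeloid lineage, binds near the start of many myeloid genes. RefSeq promoter sequences (build GRCm38.p6) were matched for 8 of the 10 members. The 250 bases before the start were searched on both strands for GAGGAA, a core recognised by PU.1 and other ETS factors, and for TTGCNNAA, a motif bound by C/EBP factors, where N is any base. GAGGAA or its complement lay before 4 of the 8 members, Ly6c2, Itgam, Cd68 and Fcgr1. Counted by window, since a gene can have more than 1 start, it lay in 5 of 9 member windows. The Ly6c2 windows overlap, and the same site counts in both, at -108 from the upstream start and -142 from the downstream start. GAGGAA or its complement lay in 23.3% of all 32851 promoter windows of the same length. TTGCNNAA lay before Cd68 only, in 1 of 9 member windows, and in 9.6% of all windows. Capitals mark these matches in the sequences below, which are printed for the 4 members with a match and for Chil3, the member with the largest fall, which had none. Ly6c2 has a pair of annotated starts, and the downstream start is shown.
Ly6c2, chr15:75111938-75112187, minus strand: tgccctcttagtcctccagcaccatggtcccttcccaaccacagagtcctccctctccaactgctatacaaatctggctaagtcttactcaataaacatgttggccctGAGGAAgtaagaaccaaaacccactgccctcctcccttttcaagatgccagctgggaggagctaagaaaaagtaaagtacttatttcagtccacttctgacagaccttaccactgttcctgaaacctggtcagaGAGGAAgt
Itgam, chr7:128062390-128062639, plus strand: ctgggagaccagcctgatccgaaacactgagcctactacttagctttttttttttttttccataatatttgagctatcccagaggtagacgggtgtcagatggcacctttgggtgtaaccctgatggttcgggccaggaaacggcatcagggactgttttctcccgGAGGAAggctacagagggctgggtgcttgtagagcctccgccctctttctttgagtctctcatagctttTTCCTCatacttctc
Cd68, chr11:69666171-69666420, minus strand: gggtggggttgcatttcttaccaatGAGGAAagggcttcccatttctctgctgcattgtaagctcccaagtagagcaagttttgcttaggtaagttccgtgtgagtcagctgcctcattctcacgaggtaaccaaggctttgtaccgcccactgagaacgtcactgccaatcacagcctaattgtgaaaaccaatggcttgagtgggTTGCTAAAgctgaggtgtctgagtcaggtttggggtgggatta
Fcgr1, chr3:96293970-96294219, minus strand: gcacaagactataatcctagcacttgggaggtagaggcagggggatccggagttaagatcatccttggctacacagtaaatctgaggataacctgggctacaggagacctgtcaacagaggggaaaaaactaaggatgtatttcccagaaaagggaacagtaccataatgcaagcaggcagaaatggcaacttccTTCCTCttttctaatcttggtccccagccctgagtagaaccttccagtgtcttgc
Chil3, chr3:106167565-106167814, minus strand: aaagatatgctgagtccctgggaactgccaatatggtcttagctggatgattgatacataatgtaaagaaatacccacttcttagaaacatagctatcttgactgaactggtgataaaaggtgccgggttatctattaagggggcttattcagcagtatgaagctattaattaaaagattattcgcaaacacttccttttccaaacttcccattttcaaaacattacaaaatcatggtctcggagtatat
The Ly6c2 matches began at -142 and -8, counted in bases from the start, those of Itgam at -84 and -15, and that of Fcgr1 at -55. In Cd68 the GAGGAA match began at -225 and the TTGCNNAA match at -43. These are matches of letters and were not tested as binding sites.

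Of the 10 members 9, all but Itgam, were called lower in Alb-Cre than in Alb-WT, and none was called higher. All 10 passed the minimum mean of 0.5 FPKM used for testing, although the Alb-Cre means of Itgam (0.496 FPKM) and Cx3cr1 (0.352 FPKM) were below it. The test was limma on log2(FPKM + 1) over 11077 rows, with a call at a Benjamini-Hochberg adjusted p under 0.05, and by this rule 23.3% of all tested rows were called lower and 8.48% higher. The median log2 fold change was -1.49 over the members and -0.13 over all tested rows. Without Alb-Cre replicate 4, all 10 members were called lower, where 46.1% of 11046 rows were called lower and 15.2% higher. The median over the members was then -1.81 against -0.16 over all rows. In replicates 1 to 3 the means of Chil3 (0.165 FPKM), Cx3cr1 (0.218), Ccr2 (0.232), Itgam (0.233) and Ly6c2 (0.301) were below the minimum. These members passed it in that comparison only through Alb-WT. For 6 members every Alb-Cre value lay below every Alb-WT value, which was so for 21.4% of the tested rows. In Alb-Cre replicates 1 to 3 alone this held for all 10 members, and for 45.9% of rows. Leaving out 1 library changed the number of members called lower to between 5 (without Alb-Cre replicate 1, Alb-Cre replicate 3 or Alb-WT replicate 3) and 10. Ly6c2, Ccr2, Chil3, Adgre1 and Csf1r kept their call each time.

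**Figure D1:**
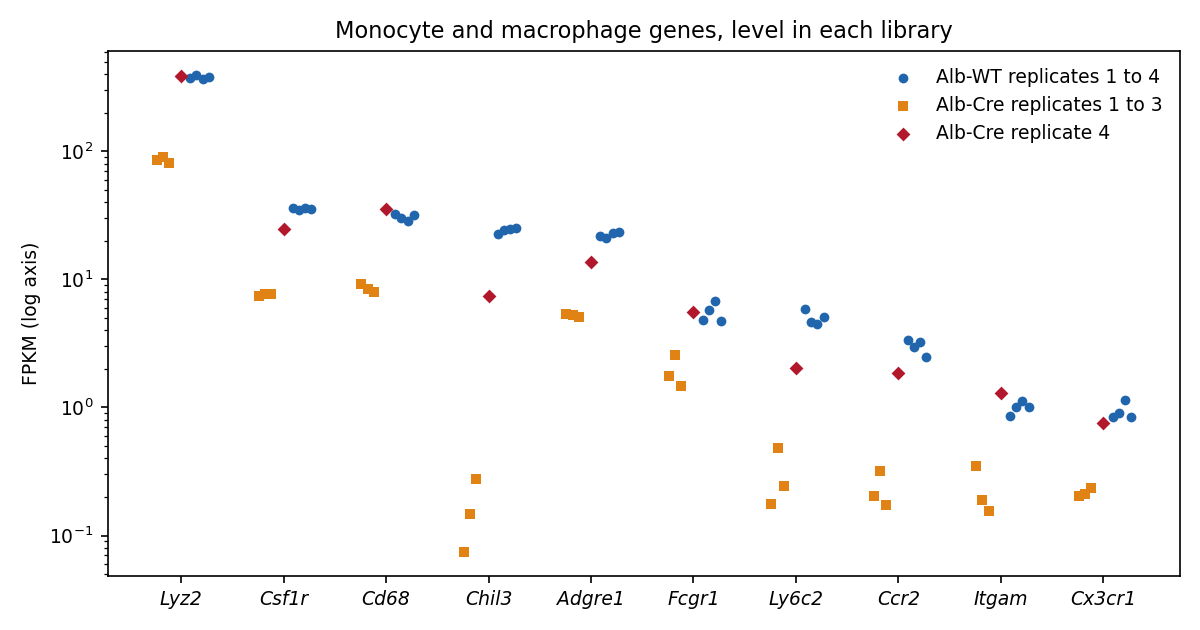
FPKM of the 10 genes in each library on a log axis, ordered by the Alb-WT mean, with circles for the 4 Alb-WT libraries, squares for Alb-Cre replicates 1 to 3 and a diamond for Alb-Cre replicate 4. The squares lie below the circles for every gene, and the diamond lies between them, or at or above the level of the circles.

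Ccr2, the receptor for the monocyte chemoattractants CCL2 and CCL7, was very low in the first 3 Alb-Cre libraries. It stood at 0.203, 0.318, 0.174 and 1.84 FPKM in Alb-Cre replicates 1 to 4 and at 3.38, 2.95, 3.27 and 2.48 FPKM in Alb-WT replicates 1 to 4. The groups did not overlap, and replicate 4 was the only Alb-Cre library above 1 FPKM. The group means were 0.635 ± 0.808 and 3.02 ± 0.404 FPKM (SD, n = 4 each; limma log2 fold change -1.40, SE 0.26, adjusted p = 0.00711). Replicates 1 to 3 averaged 7.67% of the Alb-WT mean.

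Cx3cr1, the fractalkine receptor of patrolling monocytes and tissue macrophages, was the least abundant member in Alb-WT. It was 0.204, 0.213, 0.237 and 0.756 FPKM in Alb-Cre, and the controls held 0.85, 0.899, 1.15 and 0.847 FPKM. Replicate 4 lay just under the lowest Alb-WT library, so that the groups did not overlap. The log2 fold change of -0.53 (SE 0.13, limma adjusted p = 0.0177) is compressed by the added 1 FPKM, since the Alb-WT mean was 2.66 times the Alb-Cre mean on the FPKM scale. The call was lost without Alb-Cre replicate 1, Alb-Cre replicate 3 or Alb-WT replicate 3 (adjusted p 0.0531 to 0.0551).

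Csf1r, the receptor through which CSF1 and IL-34 sustain monocytes and macrophages, was the second most abundant member in Alb-WT. Its level was 7.39, 7.63, 7.65 and 24.7 FPKM in Alb-Cre and 35.8, 34.8, 36.1 and 35.6 FPKM in Alb-WT. The first 3 Alb-Cre libraries were tightly grouped, and replicate 4 lay between them and Alb-WT without reaching it. It averaged 11.8 ± 8.55 FPKM in Alb-Cre and 35.6 ± 0.579 FPKM in the controls (SD, n = 4 each; limma log2 fold change -1.70, SE 0.33, adjusted p = 0.0079).

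Ly6c2 encodes the Ly6C antigen of classical monocytes. It stood at 0.178, 0.48, 0.245 and 2.02 FPKM in the Alb-Cre libraries, from 16, 44, 24 and 217 fragments. In Alb-WT it stood at 5.83, 4.63, 4.46 and 5.08 FPKM, from 407 to 536 fragments per library. No Alb-Cre library reached the lowest Alb-WT library, and replicate 4 came to 40.4% of the Alb-WT mean. On the FPKM scale the Alb-WT mean was 6.84 times the Alb-Cre mean, and 16.6 times the mean of replicates 1 to 3 (limma log2 fold change -1.90, SE 0.27, adjusted p = 0.00225). Ly6c1, a closely related gene that is expressed by endothelial cells and could share fragments with Ly6c2, was low and ran the other way. It was 1.02, 0.534, 0.300 and 0.487 FPKM in Alb-Cre and 0.0966 to 0.291 FPKM in Alb-WT, and was below the minimum for testing.

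Adgre1, which encodes an adhesion G protein-coupled receptor of macrophages, was 5.40, 5.23, 5.11 and 13.5 FPKM in Alb-Cre and 21.7, 21.0, 23.0 and 23.5 FPKM in Alb-WT. The groups were separate, and the first 3 Alb-Cre libraries held 23.5% of the Alb-WT mean. The log2 fold change was -1.59 (SE 0.26, limma adjusted p = 0.00376).

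Itgam, the CD11b chain of the integrin Mac-1 on monocytes and neutrophils, was the member that was not called. It was 0.352, 0.19, 0.156 and 1.29 FPKM in Alb-Cre and 0.861, 1.00, 1.12 and 1.00 FPKM in Alb-WT. Replicate 4 exceeded every Alb-WT library, whereas the first 3 lay below them all. Over all 8 libraries the log2 fold change was -0.47 (95% interval -0.92 to -0.02, limma adjusted p = 0.0933). Without Alb-Cre replicate 4 it was -0.70 (SE 0.08, adjusted p = 3.32e-05).

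Fcgr1, the high-affinity IgG receptor CD64, which interferon-gamma induces in myeloid cells, was 1.75, 2.57, 1.48 and 5.60 FPKM in Alb-Cre and 4.86, 5.74, 6.84 and 4.73 FPKM in Alb-WT. Replicate 4 lay inside the Alb-WT range, and the others lay below it. The log2 fold change was -0.87 (SE 0.28, limma adjusted p = 0.0437). It was -1.16 without replicate 4, and the call was lost without any one of the other 7 libraries (adjusted p 0.0724 to 0.113). It was lost too with median-of-ratios scaling (adjusted p = 0.0516) and with quantile normalization (0.0563).

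Lyz2, lysozyme M, a bactericidal enzyme of monocytes, macrophages and neutrophils, was by far the most abundant member. It was 85.9, 90.4, 81.0 and 388 FPKM in Alb-Cre and 370, 396, 368 and 378 FPKM in Alb-WT. Replicate 4 was inside the Alb-WT range, and the other Alb-Cre libraries held 22.7% of the Alb-WT mean. The call (log2 fold change -1.59, SE 0.45, limma adjusted p = 0.029) was lost without any one of the other 7 libraries (adjusted p 0.0647 to 0.0808), and without replicate 4 the log2 fold change was -2.13 (adjusted p = 3.28e-10). Its close relative Lyz1, which can share fragments with it, was 0.531, 0.426, 0.399 and 7.32 FPKM in Alb-Cre and 2.90 to 5.02 FPKM in Alb-WT and was not called (log2 fold change -1.09, limma adjusted p = 0.139). Without replicate 4 Lyz1 was called lower at -1.72 (adjusted p = 1.3e-06).

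Cd68, a lysosomal membrane protein of macrophages, was 9.27, 8.39, 7.99 and 35.6 FPKM in Alb-Cre and 32.3, 30.1, 28.4 and 31.8 FPKM in Alb-WT. As with Itgam, replicate 4 exceeded all Alb-WT libraries. The log2 fold change was -1.25 (SE 0.40, limma adjusted p = 0.0445), and -1.73 without replicate 4 (adjusted p = 1.08e-08). The call was lost without any one of the other 7 libraries (adjusted p 0.0882 to 0.116).

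Chil3, the chitinase-like secreted protein Ym1 of inflammatory monocytes, some macrophages and neutrophil precursors, had the largest fall of the 10. It was 0.0747, 0.146, 0.274 and 7.39 FPKM in Alb-Cre, from 4, 8, 16 and 472 fragments. In Alb-WT it was 22.5, 24.3, 24.6 and 25.2 FPKM, from 1233 to 1541 fragments. The 4 fragments of Alb-Cre replicate 1 have an exact 95% Poisson interval of 1.09 to 10.2, which covers counting error only. Replicate 4 reached 30.6% of the Alb-WT mean, and the others averaged 0.684% of it (limma log2 fold change -3.72, SE 0.59, adjusted p = 0.00355, and -4.43 without replicate 4).

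**Figure D2:**
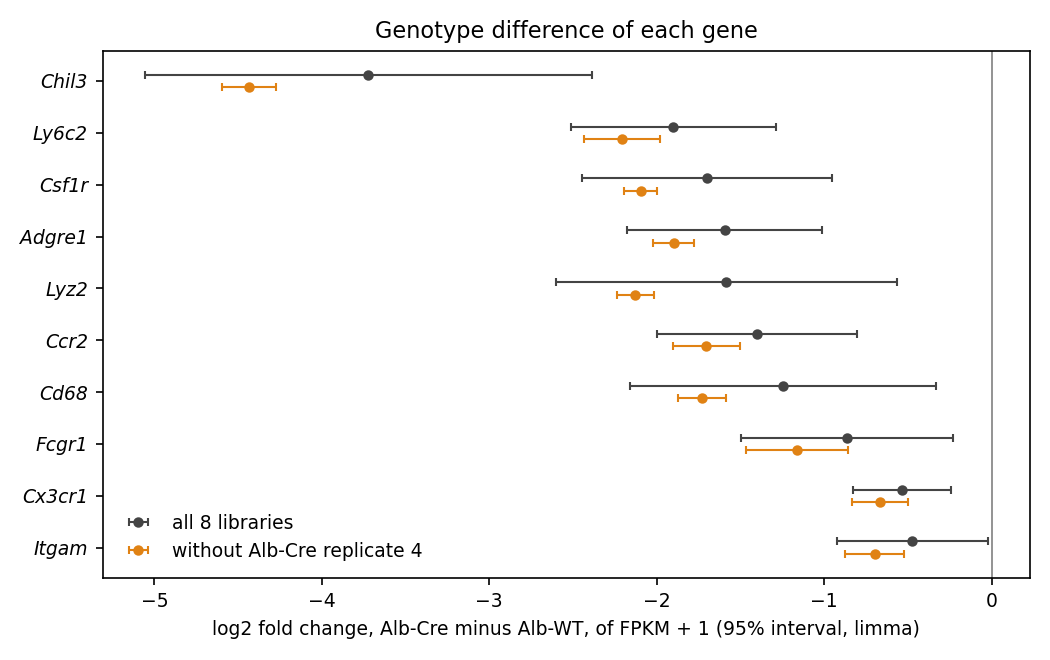
Log2 fold change of FPKM + 1, Alb-Cre minus Alb-WT, for the 10 genes with its 95% interval from limma, for all 8 libraries (grey) and without Alb-Cre replicate 4 (orange). The values run from -3.72 for Chil3 to -0.47 for Itgam with all libraries and lie farther from 0, with narrower intervals, without replicate 4.

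The members differed in how near Alb-Cre replicate 4 came to the controls. It lay above each of the other Alb-Cre libraries for all 10 members, as it did for 60.1% of tested rows. Against the Alb-WT libraries it lay below all 4 for 6 members, inside their range for Lyz2 and Fcgr1, and above all 4 for Cd68 and Itgam. Of all tested rows, 33.5% lay below and 34.4% above every Alb-WT library in replicate 4. As a share of the Alb-WT mean, replicate 4 held 30.6% of Chil3, 40.4% of Ly6c2, 60.7% of Adgre1, 61.0% of Ccr2, 69.3% of Csf1r and 80.7% of Cx3cr1. It held 101% of Fcgr1, 103% of Lyz2, 116% of Cd68 and 129% of Itgam. Replicates 1 to 3 followed another order, with Chil3, Ly6c2 (6.02%) and Ccr2 (7.67%) lowest, Csf1r, Lyz2, Cx3cr1, Itgam and Adgre1 between 21.2% and 23.5%, and Cd68 (27.9%) and Fcgr1 (34.9%) highest. A single library gives no error for its own order, and the difference between replicate 4 and the others was not tested.

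**Figure D3:**
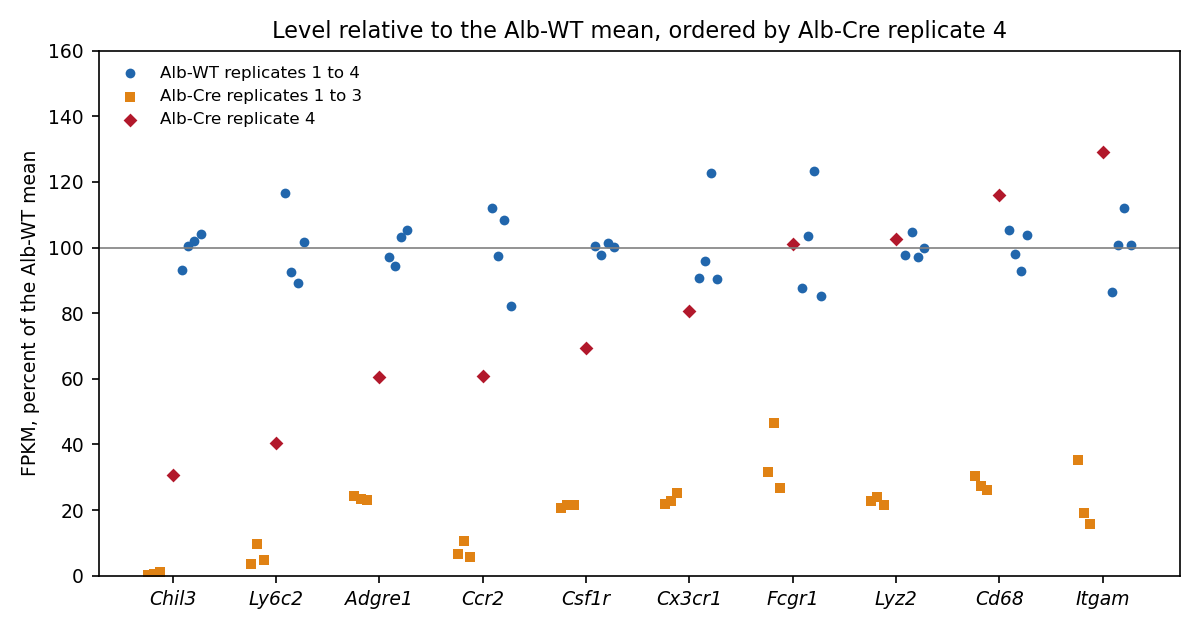
Level of each gene in each library as a percent of its Alb-WT mean, ordered by Alb-Cre replicate 4, with symbols as in the plot of FPKM by gene and a line at 100%. Replicate 4 runs from 30.6% for Chil3 to 129% for Itgam, while replicates 1 to 3 lie below every circle for each gene.

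Among the genes that are no members, those with the most similar course over the 8 libraries were Cd44, Plk3, Cd5l, Hmox1 and Itgal. Likeness was the root mean square difference from the members' median profile, in log2(FPKM + 1) less the Alb-WT mean. It ran from 0.08 for Cd44 to 0.11 for Itgal, against 0.14 for Adgre1, the nearest member, and 1.66 for Chil3, the farthest. Cd44 encodes an adhesion receptor of leukocytes, Itgal the CD11a chain of the integrin LFA-1 and Cd5l a secreted protein of tissue macrophages. Hmox1 encodes the heme-degrading enzyme of macrophages and stressed cells, and Plk3 a stress-responsive kinase. All 5 were called lower, which follows from choosing them by a profile that was low in Alb-Cre and is no separate result. The call for Hmox1 was lost without any one library other than Alb-Cre replicate 4 (limma adjusted p 0.0515 to 0.0627).

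Of 11 listed ligands of the member receptors and chains that pair with members 9 were tested, and 5 of them were called lower, none higher and 4 were not called, with a median log2 fold change of -1.02. The share of all tested rows called lower was 23.3%. Without Alb-Cre replicate 4 all 9 were called lower, against 46.1% of all rows. The calls of 3 of the 5, Ccl7, Itgb2 and Tyrobp, were lost without any one library other than Alb-Cre replicate 4. The summed level of the list was 33 to 39.2 FPKM in Alb-Cre replicates 1 to 3, 138 FPKM in replicate 4 and 104.8 to 135.9 FPKM in Alb-WT.

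The CCR2 ligand gene Ccl2 was 1.55, 1.31, 0.836 and 5.90 FPKM in Alb-Cre and 4.74 to 5.15 FPKM in Alb-WT, with replicate 4 above every control (log2 fold change -1.02, limma adjusted p = 0.0539, not called). Ccl7 was 0.152, 0.0746, 0.349 and 1.28 FPKM against 0.819 to 1.86 FPKM, and its call (adjusted p = 0.0422) was lost without any one of the other 7 libraries (0.0518 to 0.11) and with quantile normalization (0.0747). Its Alb-Cre mean of 0.463 FPKM was below the minimum for testing, which it passed through Alb-WT (mean 1.38 FPKM). Ccl8, a related chemokine gene, departed most: at 1.07, 1.29 and 1.75 FPKM it was below the Alb-WT range of 2.32 to 4.35 FPKM in replicates 1 to 3, but it reached 10.2 FPKM in replicate 4 (log2 fold change -0.30, 95% interval -1.42 to 0.81, adjusted p = 0.654). On the FPKM scale the Alb-WT mean was 0.943 times the Alb-Cre mean, the other direction. Replicate 4 held 303% of the Alb-WT mean of Ccl8 and 61.0% of that of Ccr2.

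Both ligands of CSF1R fell. Csf1 was 1.14, 1.15, 1.51 and 2.47 FPKM in Alb-Cre against 2.93 to 3.42 FPKM in Alb-WT (log2 fold change -0.74, SE 0.15, limma adjusted p = 0.00912). Il34 was 0.560, 0.900, 0.814 and 0.730 FPKM against 1.14 to 1.81 FPKM (log2 fold change -0.47, SE 0.10, adjusted p = 0.0117, and 0.126 with quantile normalization). For Il34 replicate 4 lay among the other Alb-Cre libraries, unlike the 10 members. Cx3cl1, the ligand of CX3CR1, was 0.0304 to 0.0931 FPKM in Alb-Cre replicates 1 to 3, 0.578 FPKM in replicate 4 and 0.543 to 0.707 FPKM in Alb-WT, below the minimum for testing.

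Itgb2, the CD18 chain that pairs with CD11b, was 2.26 to 2.87 FPKM in replicates 1 to 3, 15.9 FPKM in replicate 4 and 13.8 to 16.7 FPKM in Alb-WT (limma adjusted p = 0.0336). Tyrobp, a signalling adaptor of myeloid receptors, was 13.4 to 17.7, 52.0 and 41.0 to 59.7 FPKM in the same order (adjusted p = 0.0388). The calls for both were lost without any one library other than Alb-Cre replicate 4 (adjusted p 0.0694 to 0.0912 and 0.0704 to 0.103). Fcer1g, the gamma chain of the IgG receptors, and Icam1, a ligand of the CD11b and CD11a integrins, had log2 fold changes of -1.06 and -1.10 and were not called (adjusted p = 0.0563 and 0.0591).

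**Figure D4:**
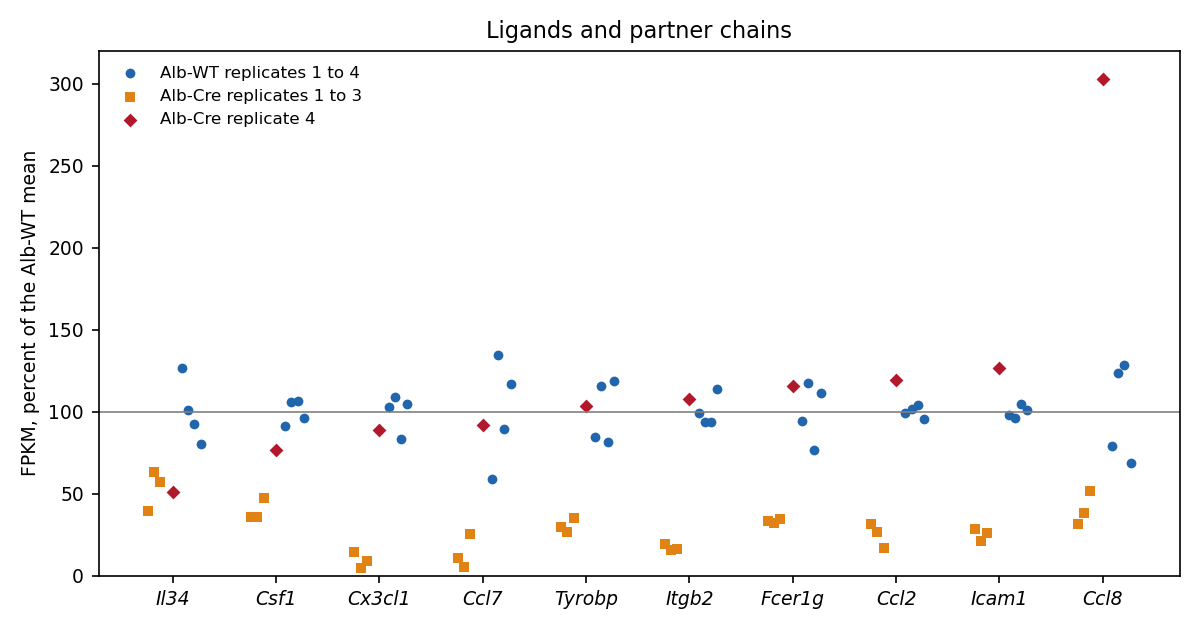
Level of ligands and partner chains in each library as a percent of the Alb-WT mean, ordered by Alb-Cre replicate 4, with symbols as in the plot of FPKM by gene. Il34 is at 51.1% in replicate 4, among the other Alb-Cre libraries, and Ccl8 at 303%.

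In a wider list of 34 monocyte and macrophage genes 32 were tested, 27 were called lower, none higher and 5 were not called (median log2 fold change -1.25), against 23.3% of all tested rows called lower. The summed level of the list was 136 to 146 FPKM in Alb-Cre replicates 1 to 3, 612 FPKM in replicate 4 and 589 to 602 FPKM in Alb-WT. The sum of replicate 4 thus exceeded that of every control. Gene by gene, replicate 4 lay above all Alb-WT libraries for 6 of the 34 genes and below them all for 14. The smallest p in the list belonged to F13a1, a transglutaminase gene of monocytes, at -0.73 (limma adjusted p = 0.00126). Next was Emilin2, an extracellular glycoprotein gene, at -0.56 (adjusted p = 0.00338). F13a1 passed the minimum for testing only through Alb-WT (mean 0.962 FPKM), as its Alb-Cre mean was 0.189 FPKM. Of 9 genes of lipid-associated macrophages 3 were called lower and 1 higher, and 7 lower and 1 higher without Alb-Cre replicate 4. Of all rows without that replicate, 46.1% were called lower and 15.2% higher. Spp1, the osteopontin gene, fell by 0.93 on the log2 scale, while Fabp5, a fatty acid binding protein gene, rose by 1.60. Of 12 tested myeloid transcription factor genes 8 were called lower and 1 higher. The summed level over 14 such genes was 234 to 250 FPKM in Alb-Cre replicates 1 to 3, 203 FPKM in replicate 4 and 221 to 249 FPKM in Alb-WT. In replicates 1 to 3 that sum was thus not below the controls. Nr4a1, needed for patrolling monocytes, had a log2 fold change of -1.20.

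Markers of other cells moved in the same libraries, and their part in the values of the 10 genes was not tested. For comparison, 23.3% of all tested rows were called lower, and the median log2 fold change over all tested rows was -0.13. All 11 Kupffer cell markers were called lower (median log2 fold change -1.03), with sums of 271 to 282 FPKM in Alb-Cre replicates 1 to 3, 765 FPKM in replicate 4 and 810.5 to 857 FPKM in Alb-WT. Slc40a1, the iron exporter, and Vsig4, a complement receptor, had the smallest p, at -0.88 and -1.06. Of 13 listed neutrophil genes 6 were tested and all 6 were called lower (median -2.63), Elane (-2.98) and Mmp9 (-0.84) with the smallest p. Mmp9 passed the minimum for testing only through Alb-WT (mean 1.34 FPKM), as its Alb-Cre mean was 0.306 FPKM. The summed level over 7 neutrophil genes was 7.46 to 7.79 FPKM in replicates 1 to 3, 90.4 FPKM in replicate 4 and 267 to 329 FPKM in Alb-WT. Replicate 4 was thus below every control, as for the Kupffer cell sum and for 6 of the 10 members. Mpo, Ngp, Camp, Ltf, Mmp8 and Ly6g were not analysed here.

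The counts of the next lists stand against 23.3% of all tested rows called lower and 8.48% higher with all libraries. Without Alb-Cre replicate 4 these shares were 46.1% and 15.2%. The sum over 11 lymphocyte and pan-leukocyte genes was 4.63 to 5.43 FPKM in replicates 1 to 3, 27.8 FPKM in replicate 4 and 15.1 to 17.2 FPKM in Alb-WT. Of 7 tested genes 1 was called lower with all libraries and all 7 without replicate 4. The one called was the pan-leukocyte gene Ptprc (log2 fold change -1.01, limma adjusted p = 0.0286, and 0.0601 to 0.0798 without any one library other than Alb-Cre replicate 4). Cd4, of helper T cells, was at -0.30 and not called (limma adjusted p = 0.0656), and at -0.38 without replicate 4 (adjusted p = 0.00378). Of 3 tested dendritic cell genes none was called, Itgax (-0.83, adjusted p = 0.0752) and Clec9a (-0.70, 0.0801) having the smallest p, while 3 of 4 were called lower without replicate 4. Interferon-gamma-inducible genes, to which Fcgr1 is related by its induction, were called lower in 8 of 10 cases (median -1.68), with Igtp at -2.75. Red cell genes were called lower in 3 of 4 cases, and their sum was 129 to 177 FPKM in replicates 1 to 3, 74.1 FPKM in replicate 4 and 358 to 462 FPKM in Alb-WT (Hbb-bt -2.30 and Hba-a1 -2.03). Of 7 tested endothelial genes 3 were called lower, among them Lyve1 (-0.81) and Cdh5 (-0.65), whereas 4 were lower and 2 higher without replicate 4. Of 8 hepatocyte genes 2 were called lower, near the 23.3% of all rows, and 5 were lower and 2 higher without replicate 4. The 2 called with all libraries were Pck1 (-0.82) and Tat (-0.46, adjusted p = 0.0673 with median-of-ratios scaling). Of 3 tested relatives of members 1 was called lower, and all 3 without replicate 4.

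Ratios within a library asked whether the monocyte genes differed more than macrophage genes of the same liver. For each 100 FPKM of Clec4f, a Kupffer cell lectin, Ly6c2 had 0.373, 1.16, 0.495 and 2.80 FPKM in Alb-Cre replicates 1 to 4 and 5.42, 4.56, 4.21 and 4.56 FPKM in Alb-WT. Every Alb-Cre ratio was below every Alb-WT ratio, a mean log2 difference of -2.41 (two-sided exact permutation p = 0.0286, the smallest that 70 assignments allow, and 0.0571 adjusted over the 2 ratios, which does not pass 0.05). For each 100 FPKM of Adgre1, Ccr2 had 3.76, 6.08, 3.40 and 13.6 FPKM in Alb-Cre and 15.6, 14.0, 14.2 and 10.6 FPKM in Alb-WT. Here replicate 4 lay inside the Alb-WT range, and the mean log2 difference of -1.24 did not pass either (two-sided exact permutation p = 0.0571, also 0.0571 adjusted). Without replicate 4 the differences were -2.97 and -1.66 (exact permutation p = 0.0286 for both after adjustment, the smallest that the remaining libraries allow). For Ly6c2 to Clec4f the unadjusted p was the same as with all libraries. Its adjusted value moved only because the p of the other ratio fell. With 1 FPKM added to each gene the Ccr2 difference turned to 0.19 and the Ly6c2 difference was -0.87.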

How the data were processed

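RNA was sequenced from 8 mouse liver libraries, 4 Alb-Cre and 4 Alb-WT, grouped by their titles. The sample descriptions also name 10x Genomics, but the protocol extracts total RNA and the table has 1 column per library, so the data were read as bulk RNA-seq. The deposited table gives FPKM as the authors computed it, with HISAT2 2.0.5 named as a tool, and a mouse and a human build listed without a role, in the submitters' processing notes. For counter, annotation and strand setting: not given in the sources used here. Without strand, overlapping and near-identical genes cannot be told apart. The table holds no value of 0, so a gene without fragments in any one library is not analysed here. Fragment numbers were recovered from the spacing of the FPKM values and came out whole in 100% of 13703 rows (tolerance 0.001), and the gene length this implied equalled that of GENCODE M21 within 1 bp for 94.6% of 13452 rows.

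From the FPKM, log2(FPKM + 1) was tested with limma 3.58.1 (R 4.3.3, empirical Bayes with an intensity trend, genotype as the only term) over rows averaging 0.5 FPKM or more, adjusted by Benjamini-Hochberg over all of them. Fold changes are on that scale, which understates changes of low genes. Ratios were tested by exact permutation. The fit was tested on simulated data, in which no library stood apart as Alb-Cre replicate 4 does. Python 3.11.15 was used for the rest. Libraries of a group differed from each other by at least 5.45 times the squared deviation that counting gives, so none was merged. Tried as alternatives were another pseudocount, other minimums, 3 scalings, voom on the fragments, a replicate block and leaving out each library.

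The 10 members and all gene lists were chosen with earlier results of these data known. Named were the members, Bicd2, the listed ligands and partner chains, the 2 tested genes with the smallest p of each other list, the relatives Ly6c1 and Lyz1, and the 5 genes nearest to the members' profile. Of the genes this rule names, 2 are not reported here.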

Additional observations from a re-analysis of the deposited data

Results flagged for a closer look

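Groups of 4 libraries were searched for a library far from the other 3, a gap that chance gives in about 1 of 20 groups taken singly. The genes share the same 8 libraries and were chosen with earlier results known, so their groups are not independent chances. The share of all tested rows with such a gap was not computed. Alb-Cre replicate 4 was above the others of its group in 60.1% of tested rows. Of 46 groups 16 had such a library, and in 15 of these it was Alb-Cre replicate 4, always as the highest of its group. Among the members it stood out for Ly6c2 (2.02 FPKM), Ccr2 (1.84), Chil3 (7.39), Adgre1 (13.5), Lyz2 (388), Csf1r (24.7), Cx3cr1 (0.756) and Cd68 (35.6 FPKM), and not by this measure for Itgam and Fcgr1. Among ligands and partner chains it stood out for Ccl2 (5.90 FPKM), Ccl8 (10.2), Cx3cl1 (0.578), Itgb2 (15.9), Icam1 (9.73), Fcer1g (39.2) and Tyrobp (52.0 FPKM). The other library was Alb-WT replicate 3 for Cx3cr1 (1.15 FPKM), just past the limit.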

How the results depend on the processing

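All members kept a negative log2 fold change, below that of the median gene, under every alternative in which they were tested; Itgam and Cx3cr1 were not tested with a mean of at least 1 FPKM. Ly6c2, Ccr2, Chil3, Adgre1 and Csf1r were called in all 16 alternatives. The number of members called lower was 8 to 10 under other scalings, filters, pseudocounts and voom, and 5 to 10 on leaving out 1 library (10 without Alb-Cre replicate 4). It was 7 with the replicate block, where Cd68 and Fcgr1 were not called, and the block gave 1631 rows lower and 613 higher. Deviations of same-numbered libraries from their group means had correlations of -0.097 to 0.013. These cannot exclude a pairing, because Alb-Cre replicate 4 stood far from the rest of its group. The labels do not say whether the numbers pair animals. No member was called higher in any alternative. Scaling set the balance of all calls: 2582 rows were lower and 939 higher (73.3% lower), against 1516 and 1874 (44.7%) with median-of-ratios scaling, 1469 and 1554 (48.6%) with quantile normalization and 3013 and 623 (82.9%) at a common FPKM sum; the median gene moved from -0.13 to 0.02, 0.02 and -0.19. On leaving out 1 library 1192 to 5088 rows were lower and 546 to 1680 higher, the highest counts without Alb-Cre replicate 4. The ratio of Ly6c2 to Clec4f gave log2 differences of -2.97 (without Alb-Cre replicate 4) to -1.996 on leaving out 1 library. Without replicate 4 it passed the threshold only because the p of the other ratio fell. That of Ccr2 to Adgre1 gave -1.66 (without Alb-Cre replicate 4, then past the threshold) to -0.99. It reversed to 0.19 with 1 FPKM added to both genes, which exceeds Ccr2 itself in Alb-Cre replicates 1 to 3. With the block both ratio differences are -2.41 and -1.24 as before, and 4 pairs cannot pass an exact sign-flip test.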
